A study of Mus musculus with 16 samples.

Results

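Glutamate and GABA are the main excitatory and inhibitory transmitters of the brain, and each acts through channel receptors and through receptors coupled to G proteins. Genes of these receptors were selected by symbol (the families Gria, Grik, Grin, Grid, Grm, Gabr and Gabbr) where any tumor had a count above 0. This gave 47 genes among 21854 genes with at least 1 count, and the rule itself uses no expression difference. They comprised 26 glutamate receptor genes and 21 GABA receptor genes. By class there were 4 AMPA, 5 kainate, 7 NMDA, 2 delta and 8 metabotropic glutamate receptor genes, and 16 GABA-A, 3 GABA-A rho and 2 GABA-B receptor genes.

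The RNA came from 16 primary rhabdoid tumors (RT), each from a different mouse of the genotype Smarcb1flox/flox;R26-CreERT2 on a mixed background of 129/SV and C57BL/6. In this line the Cre recombinase is driven from the ubiquitous Rosa26 locus and becomes active with tamoxifen, which was given while the mice were embryos, so that all groups carried the same alleles and treatment and no tumor was an undeleted control. The 5 intra-CNS tumors (29048, 38594A, 29050A, R26P98 and R26P87), which the study classes as Shh, were all induced at E6 in mice aged 30 to 180 days at sampling. The other 11 tumors, classed as Myc, were 6 intracranial extra-CNS tumors (43989C, 43992A, 29941C, 29225D, R26P170 and R26P115, with induction at E8 in 4, at E7 in 1 and at E6 in 1, aged 52 to 170 days) and 5 extracranial tumors (43825B, 43987A, 43990A, 43998A and R26P123, with induction at E8 in 4 and at E6 in 1, aged 80 to 210 days). The labels place the tumor of 43990A outside the skull, whereas the mouse list of the study gives it as intracranial extra-CNS. The labels were followed.

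Total counts ranged from 17889968 to 110177889 per tumor, and 3 counts, taken as the floor, equalled 0.0272 to 0.168 CPM. TPM, a deposited unit scaled by gene length and library, was used for levels, since it allows genes to be compared with one another. Smarcb1, the targeted gene, was between 3.99 and 58.1 TPM in the intra-CNS tumors and between 6.48 and 43.7 TPM in the others. Its highest values in these groups were in 29048 and R26P115, and both libraries stood apart in marker genes of other cells. In 29048 the summed oligodendrocyte markers reached 6878 TPM, against 42.8 to 179 TPM in the other 15 tumors. In R26P115 the choroid plexus markers reached 204447 TPM, with 4639.7 TPM in 29048 and at most 9.19 TPM in the remaining tumors. The calls are therefore also given without 29048.

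Ionotropic receptors of both families are assembled from several subunits, whose combination sets conductance, kinetics and drug sensitivity. AMPA and kainate receptors carry fast excitation, NMDA receptors need the GluN1 subunit and admit calcium, and GABA-A receptors are chloride channels usually built of alpha and beta subunits with a gamma or delta subunit. Metabotropic glutamate receptors and the GABA-B receptor, an obligate dimer, signal through G proteins. In the mature brain most of these genes are neuronal, while some are also found in glia or in neural progenitors.

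The first question was which receptor genes separated intra-CNS from all other tumors. Of the 47 genes, 36 were higher in intra-CNS tumors (edgeR's quasi-likelihood test, adjusted p under 0.05 over all genes and an absolute log2 fold change above 1) and 0 were lower. This is 76.6% of the receptor genes, beside 12.9% of all genes called higher and 13.1% called lower. The median log2 fold change was 3.99 over the 47 receptor genes and -0.15 over all genes. By class, 3 of 4 AMPA, 5 of 5 kainate, 6 of 7 NMDA, 5 of 8 metabotropic glutamate, 13 of 16 GABA-A and 2 of 2 GABA-B genes were higher, whereas 0 of 3 GABA-A rho genes were. For 20 of the 47 genes (42.6%) every intra-CNS tumor lay above every other tumor in normalised CPM, which was so for 5.43% of all genes. Because these are bulk samples, fewer cells of a type and less RNA per cell cannot be told apart.

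**Figure D1:**
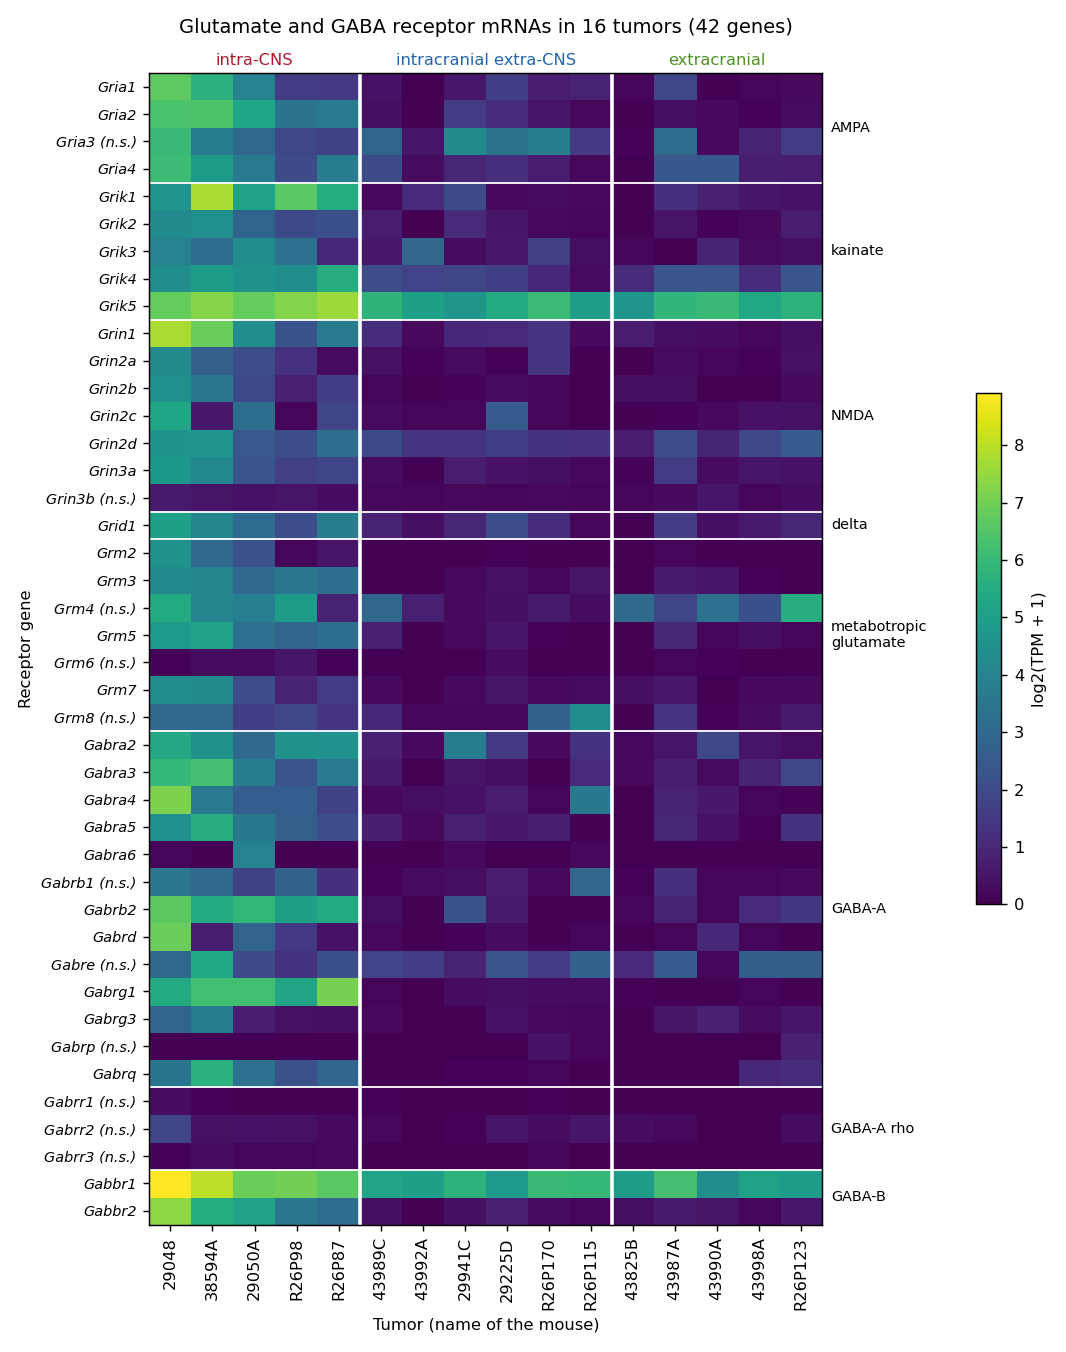
Level of 42 of the 47 receptor genes, log2(TPM + 1) on the colour scale, in each of the 16 tumors (columns, named by mouse and grouped by site). Rows are grouped by receptor class, and n.s. marks the 11 genes not past the threshold between intra-CNS and all other tumors. The 5 intra-CNS columns are brighter in most rows, and Grik5 and Gabbr1 are bright in all 16 columns.

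Summed over all 47 genes, receptor mRNA amounted to 2643 TPM in 29048, 1821 in 38594A, 847 in 29050A, 684 in R26P98 and 771 in R26P87. The other 11 tumors lay between 69.8 and 193 TPM, so that the groups did not overlap. Between 34 and 41 receptor genes exceeded 1 TPM in each intra-CNS tumor, compared with 6 to 16 in each of the others. The highest value among intra-CNS tumors was in 29048 for 20 of the 36 called genes and in 38594A for 10. The calls were repeated after leaving out intra-CNS tumors in the order of their mature neuron markers, highest first, which was chosen after the data were seen. Without 29048, 32 receptor genes were called higher (68.1%, beside 11% of all genes), and without 29048 and 38594A 24 were (51.1%, beside 8.27%). With R26P98 and R26P87 as the only intra-CNS tumors, 14 receptor genes were called higher (29.8%, beside 5.02% of all genes).

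The 14 genes included Gria2, Grik1, Grik4, Grik5, Grin1, Grin2b, Grm3, Grm5, Gabrb2, Gabrg1 and Gabbr2. All 14 are among the 20 genes whose groups did not overlap in normalised CPM. Those of the 20 that did not pass with R26P98 and R26P87 alone included Grik2, Grm7, Gabra3, Gabra5 and Gabrq. Their log2 fold changes there were 2.74, 2.23, 3.05, 2.56 and 3.86 (edgeR adjusted p = 0.0900 to 0.202). All intra-CNS tumors were induced at E6, and among the 7 tumors induced at E6 alone (5 against 2) 17 receptor genes were called higher, beside 6.29% of all genes. In that fit 44 of the 47 fold changes were above 0. Leaving out 29048 lowered the log2 fold change to 4.08 for Gria1, 2.69 for Gria4, 5.42 for Grin1, 4.59 for Grin2b, 3.41 for Grin3a, 6.37 for Grm2 and 5.74 for Gabbr2, and these calls were kept.

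**Figure D2:**
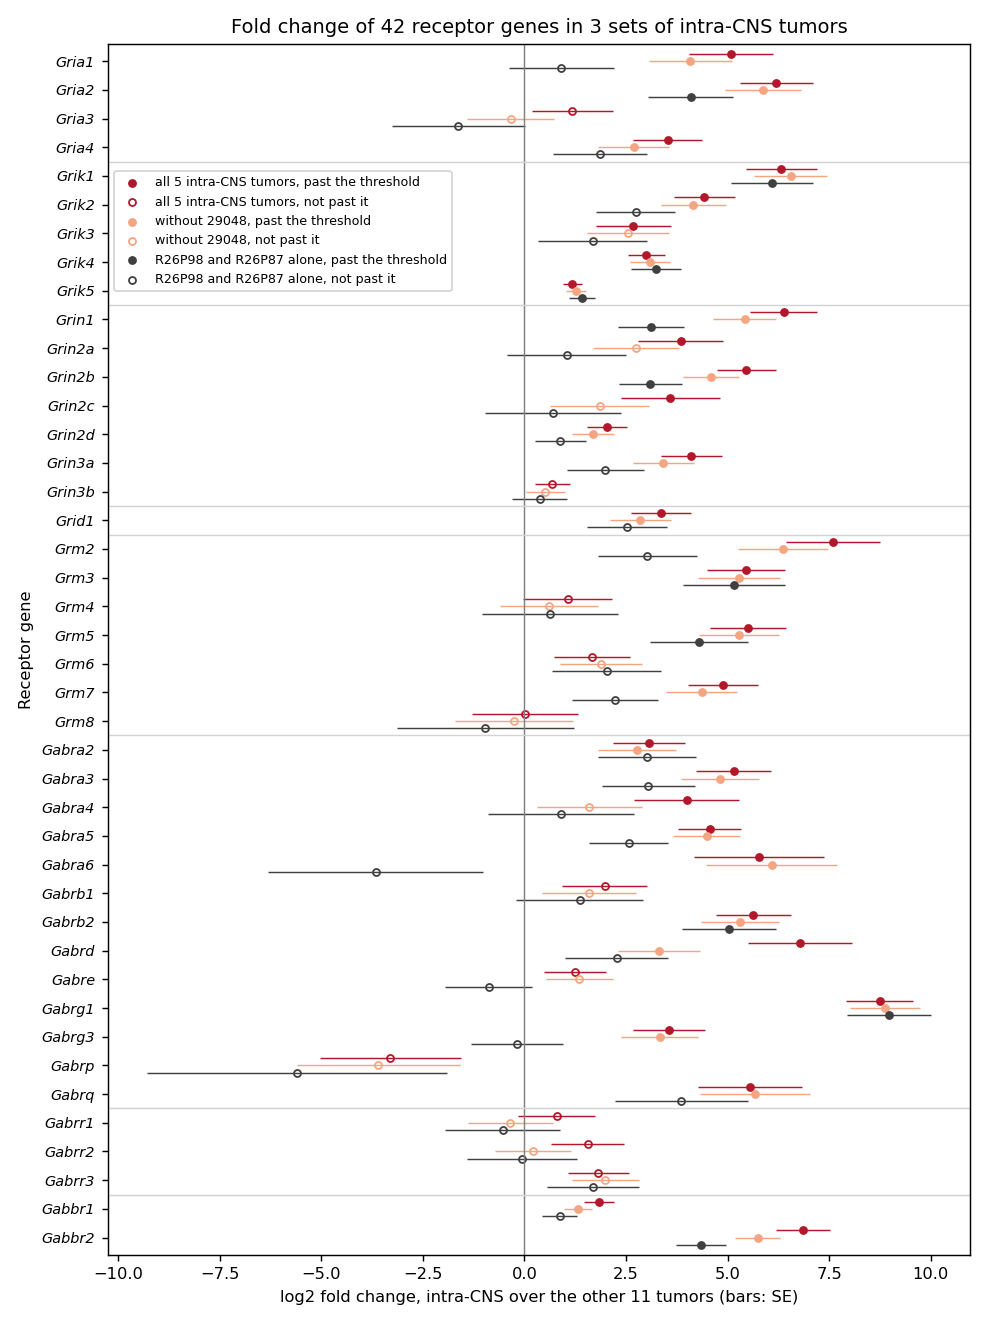
log2 fold change of 42 receptor genes, intra-CNS over the other 11 tumors, with its standard error as a bar, from edgeR fits with all 5 intra-CNS tumors, without 29048, and with R26P98 and R26P87 alone. Filled points passed the threshold. Gabrg1, Grik1, Grik4 and Grik5 hold nearly the same place in all fits, whereas Gabrd, Gabra4 and Grin2c move towards 0 without 29048.

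Inside the intra-CNS group the summed mature neuron markers had the same order of tumors as the summed receptor mRNA, whereas the immature neuron and astrocyte sums did not. The 8 mature neuron markers summed to 4886 TPM in 29048, 1643 in 38594A, 559.6 in 29050A, 266 in R26P87 and 115 in R26P98. In the other 11 tumors they summed to between 39.7 and 1753 TPM, with a median of 350.3. R26P98 and R26P87 therefore lay below the median of the extra-CNS tumors for this sum, while their summed receptor mRNA was above that of every extra-CNS tumor. Single markers did not all follow the sum. Rbfox3 (NeuN) was 4.39 TPM in R26P98 and 16.0 in R26P87, against at most 1.90 outside the CNS. Syp (synaptophysin) was 36.3 and 61.7, against at most 30.8. Snap25 and Syt1 went the other way. In R26P98 and R26P87 Snap25 was at most 38.8 TPM, against up to 170.1 in 29941C. Syt1 was at most 89.0 TPM in this pair, against up to 163 in 29225D. Of the pair, only R26P87 exceeded every extra-CNS tumor in Camk2a, and only R26P98 did in Slc17a7. The highest sum outside the CNS, that of 29941C, consisted mainly of the neurofilament genes Nefl (1127 TPM) and Nefm (345 TPM), with Rbfox3 at 0.355 TPM, and its receptor mRNA was 158 TPM. Nefl was also the largest marker in R26P170 (476 TPM), R26P123 (395 TPM) and 43998A (264 TPM), against 0.492 TPM in R26P98 and 17.5 TPM in R26P87. The place of R26P98 and R26P87 below the median therefore depends on the neurofilament genes. The 6 immature neuron markers ranged from 149 to 1689 TPM in intra-CNS tumors and from 4.14 to 459.8 TPM in the others, where the median was 27.3, and reached 149 in R26P98 and 531 in R26P87. The upper end outside the CNS was 43998A, with Stmn2 at 449 TPM, and the next highest sum was 54.4 TPM in 43989C. The 8 astrocyte markers ranged from 59.7 to 2645 TPM and from 2.87 to 253 TPM, respectively. In R26P98 6 of 8 mature neuron and 7 of 8 astrocyte markers were above 1 TPM, and in R26P87 8 and 6 were, with Agt at 0 counts. The 6 leukocyte markers did not overlap between the groups in their sum, at 145 to 192 TPM in intra-CNS tumors and 202 to 2300.2 TPM in the others. The part of these cells in the receptor levels was not tested.

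**Figure D3:**
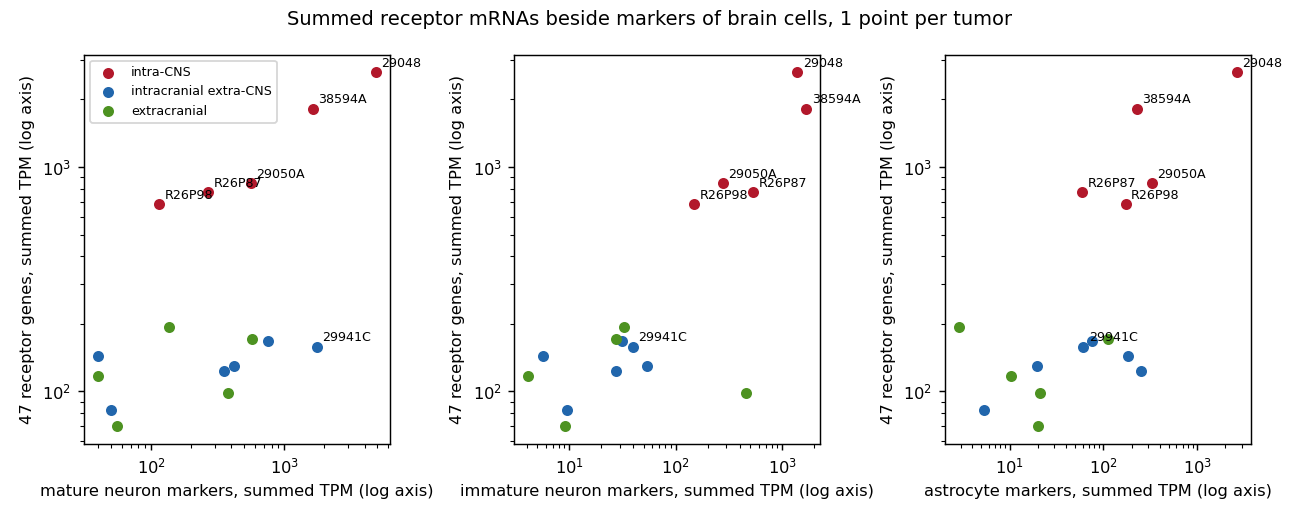
Summed TPM of the 47 receptor genes (vertical, log axis) against the summed TPM of mature neuron, immature neuron and astrocyte markers (horizontal, log axes), 1 point per tumor. R26P98 and R26P87 sit at 684 and 771 TPM of receptor mRNA with mature neuron sums inside the range of the 11 extra-CNS tumors, all of which lie at or under 193 TPM of receptor mRNA.

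Among the AMPA receptor genes, Gria2 encodes GluA2, the subunit whose edited form makes AMPA receptors nearly impermeable to calcium. Gria2 was 81.8 TPM in 29048, 85.2 in 38594A, 38.1 in 29050A, 9.71 in R26P98 and 11.5 in R26P87, while the other 11 tumors had a lowest value of 0.00930, a median of 0.208 and a highest value of 1.92 TPM. The groups did not overlap, and the log2 fold change was 6.20 ± 0.90 (SE; edgeR adjusted p = 1.07e-04), and 4.09 ± 1.05 with R26P98 and R26P87 alone. Gria1 (GluA1) and Gria4 (GluA4) were also higher, by 5.09 ± 1.03 and 3.52 ± 0.86 on the log2 scale, although their groups overlapped and both calls were lost when 29048 and 38594A were left out (edgeR adjusted p = 0.0990 and 0.141). Gria3 (GluA3) did not pass (1.18 ± 1.0, edgeR adjusted p = 0.374), with 2.28 to 62.8 TPM in intra-CNS and 0.0549 to 17.9 TPM in the other tumors. The sign of its fold change turned without 29048 (-0.34 ± 1.07).

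The subunit proportions also differed. Gria2 made up 25.9 to 55.3% of AMPA receptor TPM in intra-CNS tumors and 1.73 to 9.0% in the others. The mean share of Gria3 was 12.1% ± 5.51 (SD, n = 5) in intra-CNS tumors and 56.8% ± 24.1 (SD, n = 11) in the others, where Gria3 was the most abundant AMPA receptor mRNA on average. In some extra-CNS tumors these shares rest on few reads, with as few as 12 counts over the 4 genes in 43825B.

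The promoter of Gria2 is shown because it was the only one of the 39 promoter windows of receptor genes to hold a core of the Rest binding site. Rest is a repressor of neuronal genes, and the study reports its expression in neural progenitor clusters of mouse Shh tumors. The level of Rest was not examined here. The search was for AGCACC, 2 free bases and GGACAG on either strand. Windows of 300 bases, 250 before to 50 after the transcription start, came from RefSeq (GRCm38.p6) and covered 32 of the 47 genes. The core was found in 1 of these 39 windows (2.56%) and in 17 of 32851 windows of all genes (0.0517%). Capitals mark it in the Gria2 window at chr3:80802786-80803085 (minus strand), where it lies 170 to 157 bases before the start. It is read on the strand opposite to the gene.
Gria2: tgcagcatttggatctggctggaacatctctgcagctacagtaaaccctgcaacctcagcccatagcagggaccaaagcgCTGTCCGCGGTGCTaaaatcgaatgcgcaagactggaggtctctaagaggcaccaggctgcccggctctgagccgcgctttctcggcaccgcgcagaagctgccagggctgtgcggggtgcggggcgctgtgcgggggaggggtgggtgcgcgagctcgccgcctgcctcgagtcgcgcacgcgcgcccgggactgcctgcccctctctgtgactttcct

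All 5 kainate receptor genes were higher. Grik1 encodes GluK1 and was 24.2 TPM in 29048, 220.3 in 38594A, 33.7 in 29050A, 97.5 in R26P98 and 44.5 in R26P87. In the other tumors it lay between 0 and 3.24 TPM, with a median of 0.345. Its order over the intra-CNS tumors followed neither neuron marker sum. Tumor 29048, highest in mature neuron markers, had its lowest value, while R26P98, lowest in both sums, exceeded 29048, 29050A and R26P87. The log2 fold change was 6.32 ± 0.87 (edgeR adjusted p = 7.40e-05) and 6.08 ± 1.01 with R26P98 and R26P87 alone. Grik4 (GluK4) had 20.3, 28.5, 22.8, 19.6 and 46.2 TPM in 29048, 38594A, 29050A, R26P98 and R26P87, above the 0.209 to 4.18 TPM of the others (median 2.46). The log2 fold change was 3.00 ± 0.46 (edgeR adjusted p = 1.55e-04), with the highest value in R26P87.

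Grik5, which encodes the high affinity subunit GluK5 that needs a GluK1 to GluK3 partner, had the highest mean TPM of the kainate receptor genes in every group. It was 112, 157, 111, 151 and 194 TPM in 29048, 38594A, 29050A, R26P98 and R26P87 and 24.5 to 66.1 TPM in the others, with a median of 42.1. The groups were separate but the difference was the smallest among called receptor genes, 1.18 ± 0.23 (edgeR adjusted p = 0.00102). Grik2 (GluK2) was higher by 4.43 ± 0.76, at 2.98 to 21.2 TPM against 0.0212 to 1.09 TPM. Grik3 (GluK3) was higher by 2.68 ± 0.93 (edgeR adjusted p = 0.0359), and this call was lost when any of 9 single tumors was left out (edgeR adjusted p = 0.0505 to 0.0960), with fold changes of 2.34 to 2.76 in these fits. As a share of kainate receptor TPM, Grik5 accounted for 54.8% ± 11.5 (SD, n = 5) in intra-CNS tumors and 90.4% ± 7.04 (SD, n = 11) in the others, and Grik1 for 26.2% ± 16.1 and 1.72% ± 2.87.

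NMDA receptors require Grin1, which encodes GluN1. Grin1 was 216 TPM in 29048, 117 in 38594A, 19.8 in 29050A, 3.80 in R26P98 and 11.6 in R26P87, and between 0.0846 and 1.58 TPM in the others, with a median of 0.276. The groups did not overlap, and the log2 fold change was 6.38 ± 0.83 (edgeR adjusted p = 4.78e-05), falling to 3.11 ± 0.81 with R26P98 and R26P87 alone. Grin2b (GluN2B, prominent in the developing brain) was 21.1, 10.5, 3.0, 0.776 and 2.17 TPM in 29048, 38594A, 29050A, R26P98 and R26P87, and 0.0189 to 0.291 TPM in the others (median 0.0921). Grin2b was higher by 5.46 ± 0.73 (edgeR adjusted p = 5.56e-05) and its groups were separate.

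Grin3a (GluN3A) was higher by 4.10 ± 0.75 and Grin2d (GluN2D, an early subunit) by 2.03 ± 0.49. The groups of Grin2d overlapped, those of Grin3a did so in normalised CPM but not in TPM (lowest 2.23 against highest 1.94), and both calls were lost without 29048 and 38594A (2.26 and 0.76, edgeR adjusted p = 0.0537 and 0.306). Grin2a (GluN2A, which gains weight as the brain matures) was higher by 3.84 ± 1.04 and Grin2c (GluN2C, a cerebellar subunit) by 3.59 ± 1.22, and both calls were lost without 29048, at 2.75 ± 1.06 (edgeR adjusted p = 0.0644) and 1.85 ± 1.22 (0.259). Grin3b did not pass and stayed under 1 TPM in all 16 tumors. The log2 ratio of Grin2b to Grin2a in TPM was 0.27 in 29048, 0.92 in 38594A, -0.14 in 29050A, -0.85 in R26P98 and 3.43 in R26P87, so it followed no common direction. Outside the CNS, Grin2d was the most abundant GluN2 or GluN3 mRNA on average, at 61.6% ± 18.6 (SD, n = 11) of their TPM, compared with 34.5% ± 14.5 (SD, n = 5) in intra-CNS tumors.

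**Figure D4:**
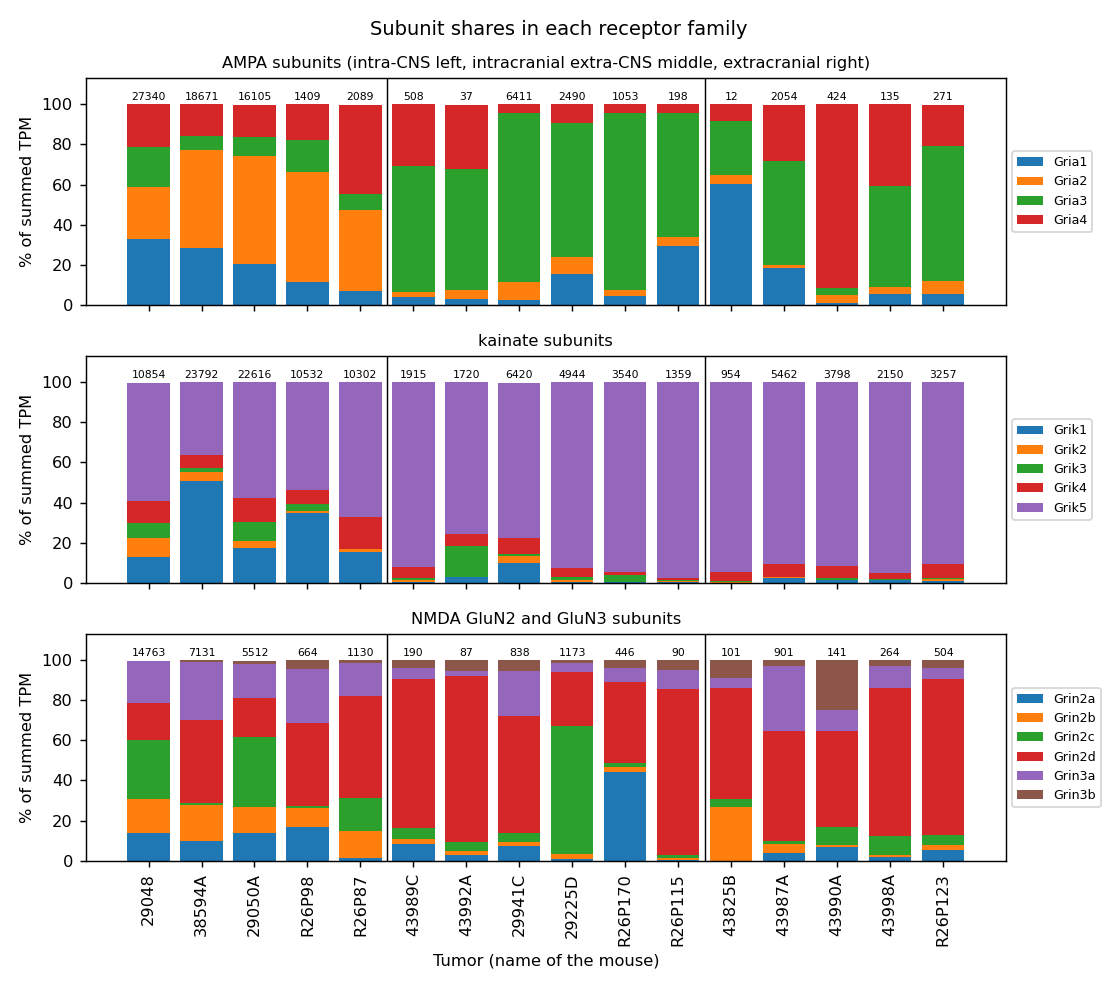
Share of each AMPA, kainate, and GluN2 or GluN3 subunit in the summed TPM of its family, 1 bar per tumor, with the counts behind each bar above it. Gria2 and Grik1 take visible shares in the 5 intra-CNS tumors (left), and Gria3 and Grik5 prevail in most of the other bars.

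The delta receptors resemble other glutamate receptors in sequence and bind cerebellin family proteins at synapses. Grid1 was higher by 3.36 ± 0.73, at 3.39 to 31.4 TPM against 0.0306 to 3.44 TPM.

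Of the metabotropic glutamate receptors, Grm3 (mGlu3, coupled to Gi and found in neurons and astrocytes) was 16.8, 15.2, 7.33, 10.8 and 8.17 TPM in 29048, 38594A, 29050A, R26P98 and R26P87. The others had 0 to 0.570 TPM with a median of 0.0897, the groups did not overlap, and the log2 fold change was 5.45 ± 0.96 (edgeR adjusted p = 4.89e-04). Grm5 (mGlu5, coupled to Gq) was 26.5, 34.3, 8.89, 6.33 and 8.40 TPM in the same order, against 0 to 0.924 TPM with a median of 0.111. It was higher by 5.50 ± 0.93 (edgeR adjusted p = 3.51e-04), again with separate groups. Grm7 (mGlu7, a presynaptic receptor) was 19.3, 17.8, 3.37, 0.839 and 1.93 TPM in that order, above the 0 to 0.503 TPM of the others (median 0.167), and higher by 4.89 ± 0.86.

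Grm2 (mGlu2) had one of the larger fold changes, 7.59 ± 1.16, but very uneven levels. It fell from 22.5 TPM in 29048 to 0.10 in R26P98, with 0 to 0.108 TPM in the others. With R26P98 and R26P87 alone it did not pass (edgeR adjusted p = 0.132). Grm4 (mGlu4) had the highest mean TPM of its class in both groups, did not pass (1.06 ± 1.09, edgeR adjusted p = 0.470) and peaked at 46.0 TPM in the extracranial tumor R26P123, above the 0.831 to 43.0 TPM of the intra-CNS tumors. Grm8 did not pass (0.02 ± 1.30), with its highest value of 19.0 TPM in R26P115. Grm6, a receptor of retinal bipolar cells, did not pass and stayed at or under 0.460 TPM in all 16 tumors.

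Gabrg1, which encodes the gamma 1 subunit of GABA-A receptors, had the largest fold change of all 47 genes. It was 43.0 TPM in 29048, 72.4 in 38594A, 72.5 in 29050A, 36.1 in R26P98 and 134 in R26P87, and 0 to 0.291 TPM in the others, with a median of 0.0930. In counts this was 1556 to 8868 per intra-CNS tumor and 0 to 51 per tumor elsewhere. The log2 fold change was 8.74 ± 0.83 (edgeR adjusted p = 3.92e-06), 8.88 ± 0.86 without 29048 and 8.97 ± 1.04 with R26P98 and R26P87 alone.

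The weight of Gabrg1 among gamma subunits varied between the intra-CNS tumors, from 28.6% of their TPM in 29048 to 95.2% in R26P87. Over the 5 tumors its share was 70.8% ± 29.4 (SD). Gabrg3 was higher by 3.56 ± 0.89, but this call was lost without 38594A (2.48 ± 0.89, edgeR adjusted p = 0.0503), in which its level was 12.6 TPM.

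Among alpha subunits, Gabra3 (alpha 3) was 60.2, 75.5, 12.6, 4.06 and 11.4 TPM in 29048, 38594A, 29050A, R26P98 and R26P87, against 0 to 2.74 TPM (median 0.393), and was higher by 5.15 ± 0.92 (edgeR adjusted p = 5.40e-04). Gabra5 (alpha 5, extrasynaptic) was 21.1, 45.8, 11, 5.41 and 3.26 TPM in the same order, against 0.0327 to 1.48 TPM (median 0.511), and was higher by 4.56 ± 0.77 (edgeR adjusted p = 3.39e-04).

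Gabra2 (alpha 2, prominent in early development) was near 22 TPM in 3 of the intra-CNS tumors, 22.1 in 38594A, 22.7 in R26P98 and 22 in R26P87, with 40.2 in 29048 and 7.33 in 29050A. Its log2 fold change was 3.07 ± 0.89, and the groups overlapped because 29941C reached 12.7 TPM. Its call was lost without 29048 and 38594A (2.64 ± 1.06, edgeR adjusted p = 0.0911). Gabra4 (alpha 4) was 140.5 TPM in 29048 and 2.32 to 12.1 TPM in the other intra-CNS tumors, and lost its call without 29048 (1.60 ± 1.28, edgeR adjusted p = 0.356). Outside the CNS it reached 11.2 TPM in R26P115.

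Gabra6, which encodes alpha 6 and is a marker of cerebellar granule cells, rested on 1 library. It had 915 counts (14.3 TPM) in 29050A and 0 to 3 counts in each of the other intra-CNS tumors. Its log2 fold change of 5.77 ± 1.59 (edgeR adjusted p = 0.0107) became -0.47 ± 1.39 (0.821) without 29050A. Gabrd (delta, an extrasynaptic partner of alpha 4 and alpha 6) was 117 TPM in 29048, 0.686 in 38594A, 6.12 in 29050A, 1.83 in R26P98 and 0.353 in R26P87. It was higher by 6.77 ± 1.28, and by 3.32 ± 1.01 without 29048 (edgeR adjusted p = 0.0231).

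**Figure D5:**
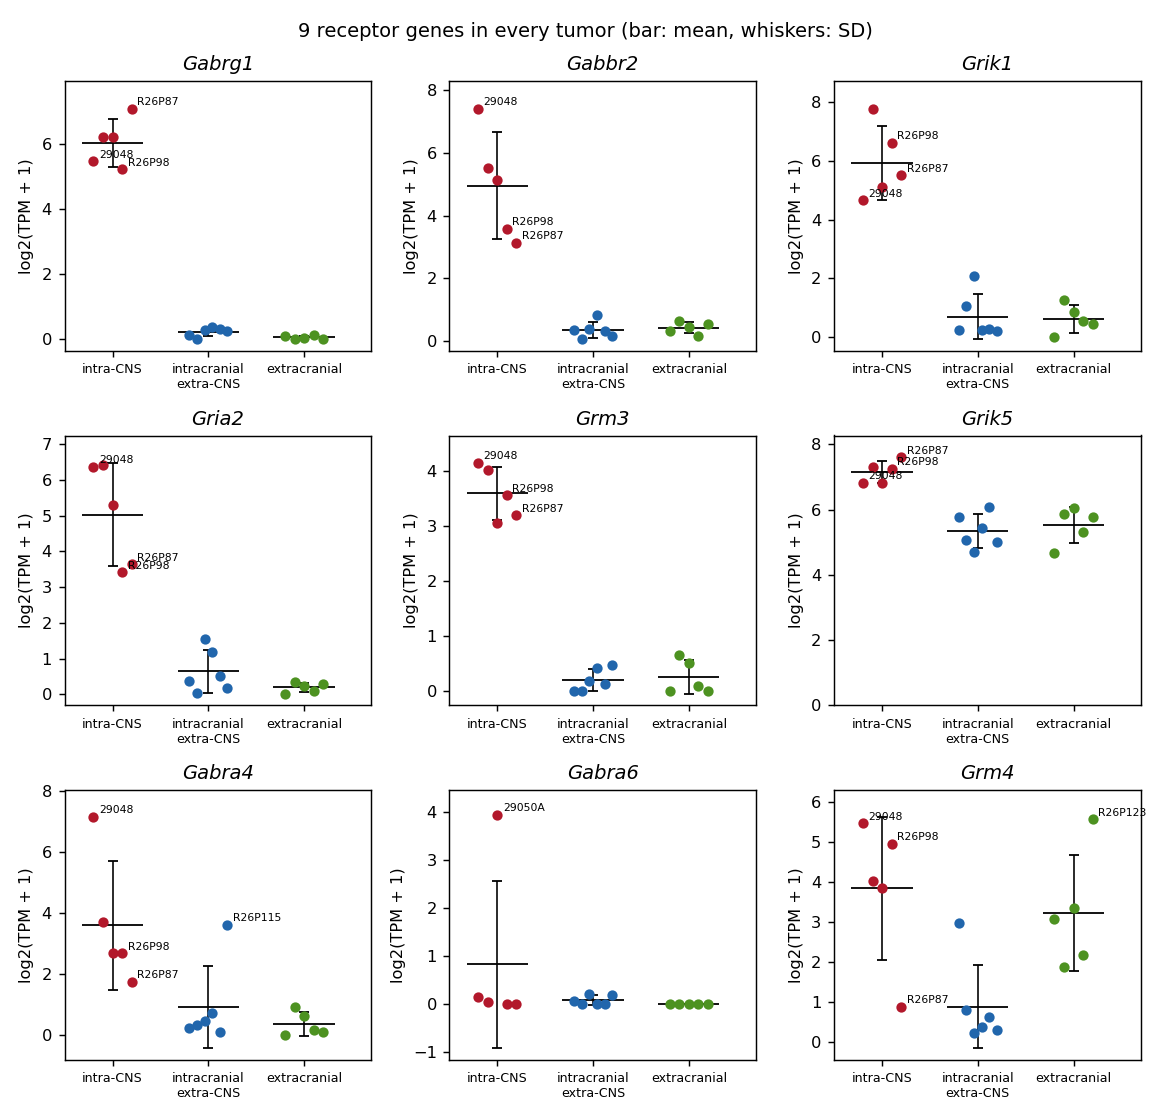
log2(TPM + 1) of 9 receptor genes in each tumor, by site, with the mean as a bar and the SD as whiskers (n = 5, 6 and 5). Gabrg1, Gabbr2, Grik1, Gria2, Grm3 and Grik5 separate all intra-CNS tumors from all others, whereas Gabra4 is led by 29048, Gabra6 by 29050A and Grm4 by R26P123 and 29048.

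Beta subunits bind GABA together with alpha subunits. Gabrb2 (beta 2) was 101, 42.7, 59.0, 32.2 and 42.1 TPM in 29048, 38594A, 29050A, R26P98 and R26P87, against 0.0295 to 3.84 TPM (median 0.256), and was higher by 5.63 ± 0.92 (edgeR adjusted p = 2.76e-04). The groups were separate. Gabrb1 did not pass (1.97 ± 1.05, edgeR adjusted p = 0.156) with all tumors but did without R26P115, where it was 6.61 TPM (3.62 ± 0.74, 0.00132).

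Gabrq (theta) was 10.1, 51.1, 9.22, 3.58 and 6.53 TPM in 29048, 38594A, 29050A, R26P98 and R26P87, and 0 to 1.27 TPM in the others (median 0.0335). It was higher by 5.56 ± 1.28 (edgeR adjusted p = 0.00337) with separate groups. Gabre (epsilon) was 1.47 to 38.8 TPM against 0.105 to 5.87 TPM and did not pass. Gabrp (pi, known from tissues outside the brain) was the only gene of the 47 with a negative fold change (-3.30 ± 1.74, edgeR adjusted p = 0.151), and no tumor exceeded 36 counts for it. The rho subunits Gabrr1, Gabrr2 and Gabrr3, which form channels best known from the retina, did not pass, and their summed level exceeded 1 TPM only in 29048 (2.90).

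Most GABA-A genes lie in clusters. Differences in fold change between members of a cluster were not tested. On chromosome 5 (GRCm38, chr5:70751047-72149037) Gabrg1 (log2 fold change 8.74), Gabra2 (3.07), Gabra4 (3.99, and 5.98 with DESeq2) and Gabrb1 (1.97, not called) are neighbours. On chromosome 11 (chr11:42306437-42629028) the adjacent Gabra6 (5.77, and -0.47 without 29050A, where it was not called) and Gabrb2 (5.63) were both called. Gabrg3 (3.56) and Gabra5 (4.56), adjacent on chromosome 7 (chr7:56716465-57510059), were called, as were Gabra3 (5.15) and Gabrq (5.56) on the X chromosome, but not Gabre (1.24) beside them. The first bases of Gabra4 and Gabrb1 overlap on opposite strands, and Gabra5 also shares bases with a gene on the other strand. It is not stated whether the counting used the strand.

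The GABA-B receptor joins Gabbr1, which binds GABA, with Gabbr2, which couples to the G protein. Gabbr1 was the receptor mRNA of highest mean TPM in intra-CNS tumors, at 479.6 TPM in 29048, 257 in 38594A, 120.1 in 29050A, 127 in R26P98 and 97.1 in R26P87. It was also abundant elsewhere, at 20.2 to 76.5 TPM (median 33.5), and was higher by 1.83 ± 0.37 (edgeR adjusted p = 0.00139), a call lost without 29048 and 38594A (0.89 ± 0.35, edgeR adjusted p = 0.0887). Gabbr2 was 169, 44.5, 34.2, 10.9 and 7.80 TPM in 29048, 38594A, 29050A, R26P98 and R26P87, and 0.0410 to 0.772 TPM in the others (median 0.283). It was higher by 6.86 ± 0.67 (edgeR adjusted p = 4.84e-06), with 4.35 ± 0.61 in R26P98 and R26P87 alone. Outside the CNS the partner subunit was thus under 1 TPM in all 11 tumors while Gabbr1 was at 20.2 TPM or more.

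The promoter windows of Gabrg1 and Gabbr2 (RefSeq, GRCm38.p6) are shown because these genes had the lowest adjusted p values of the 47 while their windows differ widely in CpG dinucleotides, which capitals mark. The Gabrg1 window (chr5:70842568-70842867, minus strand) has 3 CpG and 38.3% G and C, and the Gabbr2 window (chr4:46991665-46991964, minus strand) has 46 CpG and 80.3% G and C. The median was 7 CpG over all 32851 windows and 12 over the 39 receptor windows, which ranged from 0 to 50.
Gabrg1: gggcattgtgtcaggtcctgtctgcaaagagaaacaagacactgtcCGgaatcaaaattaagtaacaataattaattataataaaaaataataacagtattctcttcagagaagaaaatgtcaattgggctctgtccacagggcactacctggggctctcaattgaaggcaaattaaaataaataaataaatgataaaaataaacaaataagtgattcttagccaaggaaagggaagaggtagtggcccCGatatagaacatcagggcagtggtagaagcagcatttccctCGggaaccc
Gabbr2: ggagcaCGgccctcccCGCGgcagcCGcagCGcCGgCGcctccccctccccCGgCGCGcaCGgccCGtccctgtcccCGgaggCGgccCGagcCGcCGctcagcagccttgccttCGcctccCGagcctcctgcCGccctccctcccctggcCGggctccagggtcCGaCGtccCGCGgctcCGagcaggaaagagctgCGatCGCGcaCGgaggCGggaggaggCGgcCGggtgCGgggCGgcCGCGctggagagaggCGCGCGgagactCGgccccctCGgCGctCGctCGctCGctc

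Genes that work with these receptors were examined in 8 lists (68 genes), of which 36 were higher and 1 was lower in intra-CNS tumors (beside 12.9% of all genes higher and 13.1% lower), and 32 and 1 without 29048 (beside 11% higher). Of 11 AMPA receptor auxiliary subunits 8 were higher, with a median log2 fold change of 3.58 over the list. The largest were Cacng2 (stargazin), at 6.89 ± 1.14, and Cacng5, at 6.72 ± 0.91, but without 29048 Cacng2 was at 5.31, below Cacng5 (6.42) and Cacng4 (5.55). Of the 2 kainate auxiliary subunits Neto1 was higher (2.49 ± 0.60, and 1.71 without 29048), a call lost without 29048 and 38594A (edgeR adjusted p = 0.206), and Neto2 was not called (-1.23 ± 0.77). Of 20 postsynaptic scaffold genes 9 were higher, led by Dlgap2 (5.44 ± 0.78) and Dlgap3 (5.31 ± 0.96, and 3.65 without 29048, below Camk2b at 4.07 and Grip2 at 3.99), while the other 11, among them Dlg1 (-0.24 ± 0.23) and Homer1 (-0.24 ± 0.38), did not pass. Of 11 genes for GABA-A receptor anchoring and assembly 4 were higher, the largest being Shisa7 (5.31 ± 0.91) and Lhfpl4 (4.02 ± 0.53). Of the 3 GABA-B auxiliary subunits Kctd16 was higher (3.59 ± 1.0, 2.94 without 29048, and 2.01 with edgeR adjusted p = 0.221 without 38594A as well) and Kctd12 lower (-1.99 ± 0.56, edgeR adjusted p = 0.0122).

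In the lists of transmitter synthesis and transport, the genes called were all higher. Of 8 GABA genes 5 were higher, beside 12.9% of all genes, with the largest changes in the transporters Slc6a11 (GAT3, 7.87 ± 1.27) and Slc32a1 (the vesicular GABA transporter, 6.90 ± 1.16). Their order turned without 29048, at 5.54 for Slc6a11 and 6.55 for Slc32a1. Gad2, an enzyme of GABA synthesis, was higher (4.19 ± 1.30), whereas its relative Gad1 was not called (0.75 ± 1.36, edgeR adjusted p = 0.688, and -1.16 without 29048). Gad1 was 246 TPM in 29048 and 0.948 to 32.2 TPM in the other intra-CNS tumors, and 174 TPM in the extracranial tumor 43825B. Of 11 glutamate genes 7 were higher, beside the same 12.9%, led by the vesicular transporter Slc17a6 (VGLUT2, 8.23 ± 1.42) and the uptake transporter Slc1a2 (GLT-1, 5.37 ± 1.05), which were 6.60 and 4.26 without 29048. The call of Slc17a7 (VGLUT1, 4.03 ± 0.86) was lost without 29048 (1.99 ± 0.72, edgeR adjusted p = 0.0508), where it was 239.9 TPM. Without 29048 and 38594A the calls of Gad2 (1.68, edgeR adjusted p = 0.426), Slc17a6 (4.01, 0.0535) and the scaffold gene Dlgap3 (2.42, 0.0698) were lost. Slc17a7 passed again in that fit (2.26 ± 0.74, edgeR adjusted p = 0.0437). Slc17a7 and Slc1a2 are also among the neuron and astrocyte markers, and Gad1, Gad2 and Slc32a1 among the interneuron markers.

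The chloride gradient decides whether GABA-A receptors inhibit or depolarise a cell. Slc12a5 (KCC2, which exports chloride) was 193 TPM in 29048, 98.6 in 38594A, 30.1 in 29050A, 10.7 in R26P98 and 6.55 in R26P87, and 0.777 to 16.9 TPM in the others, and was higher by 3.73 ± 0.74 (edgeR adjusted p = 0.00115), and by 2.83 without 29048. Its call was lost without 29048 and 38594A (1.58, edgeR adjusted p = 0.141). Slc12a2 (NKCC1, which imports chloride) was 31.4 to 72.3 TPM in intra-CNS and 13.2 to 408 TPM in the other tumors, the highest in R26P115, and was not called (-1.11 ± 0.86). In 29050A, R26P98 and R26P87 (40.5, 35.6 and 31.4 TPM) and in every extra-CNS tumor Slc12a2 had the higher level of the pair, while in 29048 and 38594A Slc12a5 did.

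The second question was whether receptor genes differed between the 6 intracranial extra-CNS and 5 extracranial tumors. Of the 47 genes 0 passed the threshold with edgeR's quasi-likelihood test and 0 with DESeq2's Wald test, and 5 had an unadjusted p under 0.05 in edgeR, beside 12.3% of all genes. Over all 21261 genes tested 1 was called (0.00470%). They included Grm4, Gabra6, Grik3 and Gabrq. Grm4 was 0.170 to 6.77 TPM intracranially (median 0.413) and 2.65 to 46.0 TPM extracranially (median 7.43), a log2 difference of -3.18 ± 1.13 (intracranial extra-CNS over extracranial, edgeR adjusted p = 0.352). Grik3 was 0.233 to 6.66 TPM and 0.0354 to 0.866 TPM, respectively (2.62 ± 1.10, edgeR adjusted p = 0.381). Gabra6 and Gabrq were at or under 1.27 TPM in all 11 tumors. Of the 47 fold changes 27 were above and 20 below 0.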

How the data were processed

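Polyadenylated RNA of 16 tumors, each from its own mouse, had been sequenced from stranded libraries with paired ends. The authors mapped reads to mm10 with STAR 2.5.3a and deposited raw counts per gene without normalization. They also deposited TPM values from the same counts, and the gene annotation is not given in the sources used here. Groups followed the labelled tumor site, with 1 tumor per mouse as the replicate. All genes detected in at least 1 tumor were tested with edgeR 4.0.16 (TMM, glmQLFit, glmQLFTest; R 4.3.3) on the counts, with Benjamini-Hochberg adjustment over all genes. The site comparison was fitted on the 11 extra-CNS tumors alone. Alternatives used DESeq2 1.42.0, the test of the study, and limma 3.58.1 on log2(TPM + 1) or log2(TPM + 0.1). The code was tested on simulated data.

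Sums and shares of TPM were not tested. Positions came from GENCODE M21 (GRCm38) and promoters from RefSeq. The receptor genes, the lists and the tests were chosen with earlier results of these data known. Values were given for called genes averaging at least 50 counts (at most 24 by adjusted p), for genes without overlap of the groups, for the most abundant of each class, and for the 2 largest changes of each list with 6 genes of transmitter and chloride handling. Other genes were chosen after their values were seen. Results of 5 receptor genes are not reported here, although counts, sums and medians over the 47 genes, and shares, include them. Total counts of 17889968 to 110177889 per tumor set the precision, and floors cover counting error only.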

Additional observations from a re-analysis of the deposited data

Results flagged for a closer look

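In groups of 5 or 6 tumors, 13 of 88 combinations of receptor gene and group (14.8%) held a tumor whose distance to its nearest neighbour exceeded Dixon's critical value on log2(TPM + 1), where chance gives about 1 in 20. Combinations under 1 TPM in all tumors of a group were left out. In 12 of the 13 no other tumor of the group reached 1 TPM, so that the combination was kept only through its high tumor, and the share is not comparable with that of chance. In intra-CNS tumors these were Gabra6 in 29050A (14.3 TPM, the others 0 to 0.102) and Gabrr2 in 29048 (2.61 TPM, the others 0.182 to 0.364). In intracranial extra-CNS tumors, R26P115 held Gabra4 (11.2 TPM, the others 0.0755 to 0.643) and Gabrb1 (6.61 TPM, the others 0.0652 to 0.628), which are adjacent genes on chromosome 5. Likewise 29941C held Gabra2 (12.7 TPM, the others 0.158 to 1.86) and Gabrb2 (3.84 TPM, the others 0.0295 to 0.575). Single cases were Grin2a in R26P170 (1.61 TPM), Grin2c in 29225D (5.02 TPM) and Grm4 in 43989C (6.77 TPM). In extracranial tumors, 43987A held Gria1 (2.80 TPM, the others 0.0488 to 0.166), Grin3a (1.94 TPM) and Gabrb1 (1.35 TPM), and 43990A held Gabra2 (2.77 TPM).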

How the results depend on the processing

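No paired analysis was possible because the 16 tumors come from 16 mice, so that the groups have no mouse in common. The count of 36 receptor genes past the threshold was between 32 and 37 when 1 tumor was left out, and that of the 8 lists (37 genes in both directions) between 33 and 41. With the 7 tumors induced at E6 alone the counts were 17 and 13, beside 6.29% of all genes called higher. With the 5 R26P mice alone they were 0 and 0, where 0 genes of all were called. Without 29048 and 38594A the lists gave 20 of 68 genes (19 higher and 1 lower), beside 8.27% of all genes called higher. Without 29050A as well the counts were 14 and 7, beside 5.02% of all genes called higher. In the site comparison the count was 0 in every alternative run. Among receptor genes called with all tumors, signs turned for Grin2a (-0.20), Gabra4 (-0.70), Gabra6 (-3.82) and Gabrg3 (-0.14) in R26P mice alone, for Gabra6 without 29050A (-0.47, with up to 6.59 when another single tumor was left out), and for Gabra6 (-3.66) and Gabrg3 (-0.18) without 29048, 38594A and 29050A. None of these reversed values passed the threshold, and beyond the tumors left out the cause was not tested.

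Grik3 was lost without any one of 29048, 38594A, 29050A, R26P98, 43989C, 29941C, 29225D, 43998A or R26P123 (adjusted p 0.0505 to 0.0960, edgeR, at log2 fold changes of 2.34 to 2.76 against 2.68), and Grin2c without 29050A or 43989C (0.0507 and 0.0552, at 3.63 and 3.40 against 3.59). DESeq2 gave no adjusted p for Gabra6 and Gabrd. The filter of edgeR on low counts removed 7 receptor genes, of which Gabra6 and Grm2 had been called with all tumors.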
